A study of Bos grunniens and Bos grunniens x Bos taurus with 2 samples.

Results

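Early spermatocytes (early-SPC) were the smallest of the 5 germ cell types that the authors named in the yak testis, 72 of the 1127 typed cells. They were found by joining the barcodes of the authors' cell table to the yak library, and all 72 were present among its 11991 barcodes. The series holds 20921 barcodes in 2 libraries, 1 from a sexually mature yak and 1 from a cattle-yak, the hybrid of cattle and yak whose males are sterile. Testis tissue was frozen, thawed and digested with enzymes before droplet capture with the 10x Genomics system, and each transcript was counted by its molecular identifier (UMI). The yak cells came from 1 animal, so the 72 cells shared one testis, one digestion and one library. They were compared with the spermatogonia (SPG, 486 cells) and the late spermatocytes (late-SPC, 261 cells) of the same table. None of the 24 barcodes found in both libraries belonged to these 3 types. With 1 library there was no test between types, and all intervals given are exact 95% intervals that cover counting error only. The types were made by the authors from clusters of the same counts, so the ratios between them describe the cells and are not independent evidence for the type.

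A spermatocyte enters meiotic prophase after a last round of DNA replication. Its chromosomes are then organised along protein axes held by cohesin, programmed breaks are made in the DNA, and recombinases use the homologous chromosome to repair them. The synaptonemal complex zips the paired homologs together, and a subset of the breaks becomes crossovers. As synapsis is completed, the X chromosome of mammalian spermatocytes is silenced, and genes for the later spermatocyte and the spermatid are switched on.

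The 72 cells held 284770 UMIs, with 572 in the shallowest cell, a median of 1800 and 11202 in the deepest. The median was 979.5 UMIs in SPG and 1168 in late-SPC, and the type totals were 618792 and 476295 UMIs. A median of 1006 genes was detected per early-SPC cell, against 575 in SPG and 726 in late-SPC. Mitochondrial transcripts took a median of 11.9% of the UMIs of an early-SPC cell, 14.4% in SPG and 9.24% in late-SPC. Depth was uneven among the 72 cells. The 25 cells with at least 5000 UMIs held 76.7% of the UMIs of the type, whereas the 23 cells with fewer than 1000 UMIs held 6.07%. Levels are given below as UMIs of a gene per 1000000 UMIs of the type (CPM), and a count of 0 in early-SPC allows a level of up to 10.5 CPM, which corresponds to 3 UMIs.

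The label was first checked against its 3 markers. SYCP3, the core protein of the chromosome axis, had UMIs in 60 of the 72 cells, RAD51AP2, a partner of the meiotic recombinases, in 45, and MEIOB, a single-strand DNA binding protein of meiosis, in 46. At least 1 of the 3 was seen in 68 cells, at least 2 in 49 and all 3 in 34. The 4 cells without any of them were shallow, with 598 to 855 UMIs. The 34 cells with all 3 had a median of 8058 UMIs, and the 19 cells with only 1 had a median of 826. No SPG cell and 4 late-SPC cells had UMIs of 2 or more of the 3 genes. Some deeper cells lacked a marker as well. MEIOB was at 0 in a cell of 7250 UMIs, RAD51AP2 in one of 3904, and both in cells of 1973, 2183 and 2833 UMIs, whereas cells of 690, 708 and 865 UMIs held all 3. The 3 genes are among those used to name the type from these same counts, so their presence restates the naming.

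Shares of cells were compared at one depth by thinning every cell to 1000 UMIs, which left 49 early-SPC, 237 SPG and 164 late-SPC cells and left out 23, 249 and 97. At that depth 89.8% of early-SPC cells had a UMI of SYCP3 (95% interval 77.8 to 96.6%), against 3.38% of SPG and 1.83% of late-SPC. T and NK cells, which should lack SYCP3, served as the background: 0.195% of the 2565 used had a UMI, and their median depth before thinning was 2180 UMIs. Without thinning the shares were 83.3%, 5.14%, 1.92% and 0.838%, and thinned to 500 UMIs the share in early-SPC was 48.6%. MEIOB had a UMI in 46.9% of thinned early-SPC cells, 0.422% of SPG and 13.4% of late-SPC, with a background of 0.156%. In early-SPC that share was 63.9% without thinning and 23.6% at 500 UMIs. RAD51AP2 had one in 32.7% of early-SPC, 0.422% of SPG and 0.61% of late-SPC, with a background of 0.078%, and in 62.5% of early-SPC without thinning. SYCP3 in SPG (1.47 to 6.54%) and MEIOB in late-SPC were thus also above their backgrounds, whose interval for SYCP3 was 0.0633 to 0.454%.

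Across the annotation, genes with at least 50 UMIs summed over the pair of types were compared by the log2 ratio of CPM after 1 CPM was added. Against SPG, 2998 genes were compared, of which 861 (28.7%) were at least 2-fold higher in early-SPC and 872 (29.1%) at least 2-fold lower. Against late-SPC, 2799 genes were compared, with 825 (29.5%) at least 2-fold higher and 1054 (37.7%) at least 2-fold lower. The median log2 ratio over all compared genes was 0.02 against SPG and -0.28 against late-SPC. These shares are the background for the list counts that follow. A gene that reached 50 UMIs through the type where it is high had to differ, so a list's count and median cover its compared genes and not the whole list. The same 72 cells stand in both comparisons. Nothing is read from a list's count against this background, because the type was defined by the same counts.

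The synaptonemal complex list had its highest summed level in early-SPC, although SYCP2L, 1 of its annotated genes, had 0 UMIs there. The 8 genes of the list that were found in the annotation summed to 5194 CPM in early-SPC, 617 in SPG and 1167 in late-SPC. All 6 that were compared with SPG were at least 2-fold higher, with a median log2 ratio of 2.87, and 5 of 7 were at least 2-fold higher than in late-SPC, with none lower and a median of 1.87. SYCP3 reached 1787 CPM (1636 to 1950) in early-SPC, 42.0 (27.5 to 61.6) in SPG and 14.7 (5.91 to 30.3) in late-SPC. SYCP1, which forms the transverse filaments, was at 1359 CPM in early-SPC (1227 to 1501), 323 in SPG (280 to 371) and 294 in late-SPC (247 to 347). For both genes the intervals of SPG and late-SPC overlapped, and early-SPC lay above both. The central element genes SYCE1 and SYCE2 and the axis gene SYCP2 had smaller differences from late-SPC. SYCE1 was at 379 CPM in early-SPC and 239 in late-SPC, a log2 ratio of 0.66 (0.27 to 1.06). SYCP2 was at 548 and 294 CPM, a log2 ratio of 0.90 (0.56 to 1.24). TEX12, another central element gene, was at 716 CPM in early-SPC and 195 in late-SPC. SYCP3 therefore had a log2 ratio to late-SPC of 6.83, whereas the other 6 compared genes of the list had ratios of at most 2.21.

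**Figure D1:**
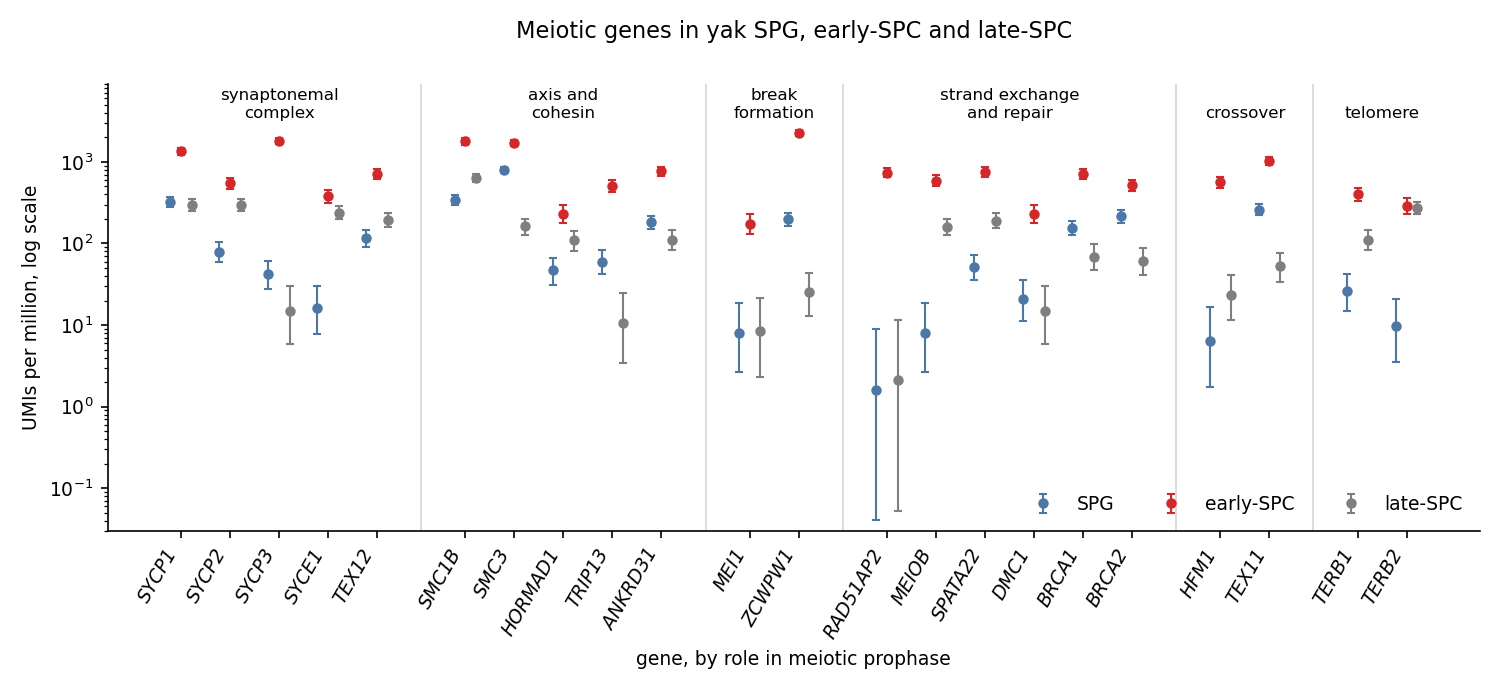
CPM (log axis) of meiotic prophase genes in SPG (blue), early-SPC (red) and late-SPC (grey). Points are the summed level of each type and bars are exact Poisson 95% intervals for counting error. The red point is the highest of the 3 for every gene shown, but for TERB2 it overlaps with late-SPC.

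Genes of the chromosome axis and of cohesin, the ring complex that holds sister chromatids, were highest in early-SPC, with RAD21 and HORMAD2 as exceptions among those compared. The list of 9 annotated genes summed to 5331 CPM in early-SPC, 1736 in SPG and 1369 in late-SPC. Against SPG 6 of 7 genes were at least 2-fold higher and 1 lower, with a median of 2.28, and against late-SPC 6 of 7 were higher, with a median of 1.56. SMC1B, a meiosis-specific cohesin subunit, was at 1784 CPM in early-SPC, 344 in SPG and 630 in late-SPC. SMC3, a subunit shared by all cohesins, was at 1717 CPM in early-SPC, 793 in SPG and 162 in late-SPC. RAD21, the kleisin of mitotic cohesin, went the other way from SMC3 against SPG, with 45.7 CPM (24.3 to 78.1) in early-SPC and 246 (208 to 288) in SPG. TRIP13, the ATPase that removes HORMA proteins from synapsed axes, was at 513 CPM in early-SPC, 59.8 in SPG and 10.5 in late-SPC. HORMAD2, an axis protein of unsynapsed chromosomes, was lower than in late-SPC, with 148 CPM (106 to 199) in early-SPC and 267 (222 to 317) in late-SPC. REC8, the meiotic kleisin, gave 1 UMI in early-SPC, 15 in SPG and 0 in late-SPC. SPG, at 24.2 CPM (13.6 to 40.0), lay above late-SPC, and the interval of early-SPC (0.0889 to 19.6 CPM) overlapped those of both.

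Break formation was represented by few measured genes. The list summed to 2683 CPM in early-SPC, 477 in SPG and 233 in late-SPC. Most of the early-SPC sum, but not of the other 2, was ZCWPW1, a reader of the histone marks laid down at recombination hotspots. ZCWPW1 was at 2255 CPM (2083 to 2436) in early-SPC, 199 (165 to 237) in SPG and 25.2 (13.0 to 44.0) in late-SPC. MEI1, which is needed for break formation, was at 176 CPM in early-SPC, 8.08 in SPG and 8.40 in late-SPC. Of the genes compared, 2 of 4 were at least 2-fold higher than in SPG and none lower, and 2 of 3 were higher than in late-SPC. REC114, a partner of the break machinery, was the gene lower than in late-SPC, with 73.7 CPM (45.7 to 113) against 191 (154 to 235). SPO11, the enzyme that makes the breaks, had 7 UMIs in 7 early-SPC cells, 0 in SPG and 4 in late-SPC. HELLS, a chromatin remodeller that acts with the hotspot machinery, did not differ from SPG beyond counting error, with log2 ratio -0.12 (-0.66 to 0.40), and was at 155 CPM in early-SPC with 0 UMIs in late-SPC, at least 24.5-fold higher than the level 3 UMIs would give there.

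Strand exchange and break repair genes summed to 5015 CPM in early-SPC, 1362 in SPG and 1405 in late-SPC. Of 13 genes compared with SPG, 8 were at least 2-fold higher and none lower, with a median of 1.40, and of 11 compared with late-SPC, 7 were higher and none lower, with a median of 1.97. RAD51AP2 was at 741 CPM (644 to 848) in early-SPC from 211 UMIs, against 1 UMI in all of SPG and 1 UMI in all of late-SPC. Its log2 ratio was 8.15 against SPG, with an interval of 6.35 to 14.2, and it was the highest of the annotation there among genes with at least 50 UMIs and a UMI in 20% of early-SPC cells. MEIOB and SPATA22 encode 2 partners of one complex. MEIOB was at 590 CPM in early-SPC, 8.08 in SPG and 160 in late-SPC. SPATA22 was at 752 CPM in early-SPC, 51.7 in SPG and 191 in late-SPC. Both kept a level in late-SPC, unlike RAD51AP2. DMC1, the meiotic recombinase, was at 232 CPM (179 to 295) in early-SPC, 21.0 in SPG and 14.7 in late-SPC. BRCA1 and BRCA2, which load recombinases, were also measured. BRCA1 was at 716 CPM in early-SPC, 155 in SPG and 69.3 in late-SPC. BRCA2 was at 516, 215 and 60.9 CPM in the same order. MND1, a cofactor of DMC1, differed from SPG by a log2 ratio of 1.40 (1.00 to 1.81) and from late-SPC by 0.36, with an interval that reached 0.

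Crossover genes summed to 2251 CPM in early-SPC, 606 in SPG and 575 in late-SPC. HFM1, a helicase for crossover formation, was at 562 CPM (478 to 656) in early-SPC, 6.46 in SPG and 23.1 in late-SPC. TEX11, an X-linked gene of the same process, was at 1029 CPM in early-SPC, 260 in SPG and 52.5 in late-SPC. SPO16, annotated here as C1orf146, was at 365 CPM in early-SPC, 126 in SPG and 52.5 in late-SPC. Of the genes compared, 3 of 4 were at least 2-fold higher than in SPG and 3 of 5 than in late-SPC. PRR19, which acts at a later step of crossover designation, was lower than in late-SPC, with 28.1 CPM (12.1 to 55.4) against 90.3 (65.3 to 122). PRR19 was thus lower than in late-SPC, while HFM1, TEX11 and SPO16 were higher.

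Telomeres are tied to the nuclear envelope in early prophase so that the cytoskeleton can move the chromosomes. Of 7 genes of that list compared with SPG, 3 were at least 2-fold higher and 1 lower, and of 7 compared with late-SPC, 4 were higher and 2 lower. The list summed to 1794 CPM in early-SPC, 818 in SPG and 1976 in late-SPC, a log2 ratio of the sums of -0.14 (-0.30 to 0.02) to late-SPC. TERB1, which binds the telomere, was at 404 CPM in early-SPC, 25.9 in SPG and 111 in late-SPC. TERB2, its partner, was at 292 CPM (232 to 361) in early-SPC and 273 (228 to 324) in late-SPC, overlapping intervals, against 9.70 in SPG. KASH5, annotated as CCDC155, which connects to the motor dynein, was at 270 CPM in early-SPC, 24.2 in SPG and 56.7 in late-SPC. DYNLT1, a dynein light chain, went the other way, with 102 CPM in early-SPC, 325 in SPG and 1142 in late-SPC. SPDYA, an activator of CDK2 at telomeres, was at 49.2 CPM in early-SPC and 147 in late-SPC. The RNA regulators of meiotic entry MEIOC and YTHDC2 act as a complex. MEIOC was at 393 CPM in early-SPC, 56.6 in SPG and 160 in late-SPC. YTHDC2 was at 414, 45.3 and 113 CPM. Of the entry list, 3 of 6 compared genes were at least 2-fold higher and 1 lower than in SPG, and 2 of 7 were higher and 2 lower than in late-SPC. ZGLP1, a transcription factor of meiotic commitment, was lower than in both, with 21.1 CPM in early-SPC, 80.8 in SPG and 92.4 in late-SPC.

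**Figure D2:**
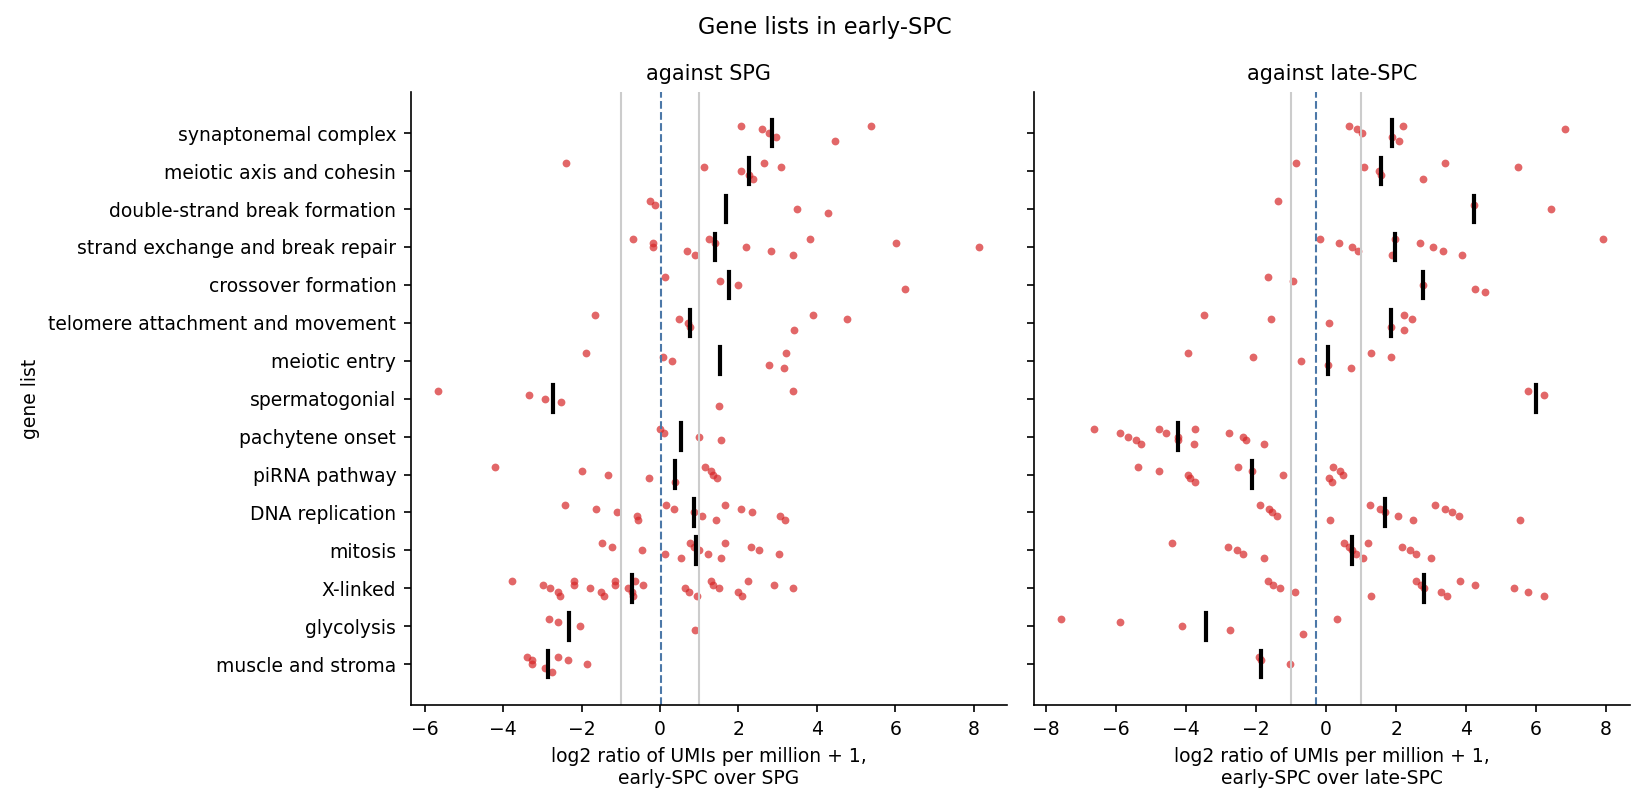
Log2 ratio of early-SPC to SPG (left) and to late-SPC (right) for genes of 15 lists, with 1 CPM added. Each point is a gene with at least 50 UMIs in the pair, black bars are list medians, grey lines mark 2-fold and the dashed blue line is the median of all compared genes, 0.02 on the left and -0.28 on the right. The 5 prophase lists at the top have their medians to the right of the blue line in both panels, and the 15 pachytene onset genes compared lie to the left of 2-fold against late-SPC.

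For the preceding stage, the spermatogonial list held 18 annotated genes, of which 7 had 0 UMIs in early-SPC. The 6 that were compared with SPG separated into 2 sets, with 4 at least 2-fold lower in early-SPC and 2 higher. UCHL1, a ubiquitin hydrolase of spermatogonia, was at 133 CPM (94.4 to 183) in early-SPC, 1028 (950 to 1111) in SPG and 12.6 (4.62 to 27.4) in late-SPC, and it had UMIs in 22 of the 72 cells. DMRT1, a transcription factor that holds off meiosis, had 1 UMI in early-SPC against 141 in SPG, a log2 ratio of -5.66 (-11.3 to -3.52). ELAVL2, an RNA-binding protein, was at 14.1 CPM in early-SPC and 152 in SPG, and ZBTB16, a factor of undifferentiated spermatogonia, at 17.6 and 105 CPM. The 2 higher genes, TKTL1 and SCML2, are both X-linked. TKTL1, a transketolase-like gene, was at 1183 CPM (1060 to 1317) in early-SPC, 419 in SPG and 14.7 in late-SPC. SCML2, a germline Polycomb protein, was at 397 CPM in early-SPC, 37.2 in SPG and 6.30 in late-SPC. The summed list was at 1907 CPM in early-SPC and 2185 in SPG, with members on either side of SPG. Its order changed with depth. In cells with at least 5000 UMIs it was at 1924 CPM (1744.5 to 2117) in early-SPC and 3322 (2798 to 3916) in SPG, whereas in cells with fewer than 1000 UMIs it was at 1563 (1030.0 to 2274) and 1447 (1280 to 1630), with overlapping intervals. The log2 ratio of the sums was -0.20 in the whole types and 0.15 without the deepest 10% of cells of each type. KIT, a receptor of differentiating spermatogonia, had 2 UMIs in early-SPC and 14 in SPG, under the minimum for a comparison and with overlapping intervals of 0.851 to 25.4 and 12.4 to 38.0 CPM.

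Genes of the following stage were far below late-SPC. The pachytene onset list summed to 716 CPM in early-SPC, 561 in SPG and 8165 in late-SPC, and the 15 genes compared with late-SPC were at least 2-fold lower, with a median of -4.25. Each of the 15 reached 50 UMIs in late-SPC alone, and of the 6 that did not reach it, CATSPERB had 11 UMIs in early-SPC and 4 in late-SPC and ZPBP2 12 and 15. Against SPG the list was higher in the whole types, with a log2 ratio of the sums of 0.35 (0.10 to 0.61). Split by depth, the intervals of early-SPC and SPG were apart in the deep cells only. In cells with at least 5000 UMIs the list was at 751 CPM (641 to 876) in early-SPC and 304 (162 to 520, from 13 UMIs) in SPG. In cells with 1000 to 5000 UMIs it was at 549 (362 to 798) and 587 (513 to 668). With fewer than 1000 UMIs it was at 752.5 (401 to 1287) and 566 (463 to 684). The intervals overlapped in the latter 2 groups of cells. CLGN, a chaperone of the later germ cell, was at 165 CPM (121 to 220) in early-SPC and 3112 (2955 to 3274) in late-SPC. SPATA16, a gene of acrosome formation, was at 28.1 CPM in early-SPC and 695 in late-SPC. TCFL5, a transcription factor of pachytene cells, had 1 UMI in early-SPC and 214 in late-SPC. CCNA1, a meiotic cyclin, had 1 UMI against 92. PIWIL1, the Piwi protein of pachytene piRNAs, was at 14.1 CPM in early-SPC and 414 in late-SPC. ZPBP, a zona-binding protein of the acrosome, was the gene of this list that was at least 2-fold higher than in SPG, at 126 CPM in early-SPC, 42.0 in SPG and 622 in late-SPC. Of 13 piRNA pathway genes compared with late-SPC, 8 were at least 2-fold lower and none higher, and against SPG 4 of 9 were higher and 3 lower. RNF17 was at 572 CPM in early-SPC and 223 in SPG, whereas MAEL was at 42.1 and 171 CPM and TDRD1 had 1 UMI against 51. The spermatid list summed to 126 CPM in early-SPC, 1390 in late-SPC and 10404 in the spermatids of the same table.

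Early-SPC also had genes of DNA replication and of chromosome segregation. Of 15 replication genes compared with SPG, 7 were at least 2-fold higher and 3 lower, with a median of 0.87, and of 15 compared with late-SPC, 10 were higher and 4 lower, with a median of 1.68. MCM6, a subunit of the replicative helicase, was at 292 CPM in early-SPC, 69.5 in SPG and 23.1 in late-SPC. Other subunits were lower than in SPG: MCM7 was at 28.1 CPM in early-SPC, 155 in SPG and 86.1 in late-SPC, and MCM3 at 38.6, 123 and 21.0 CPM. Of the mitosis list, 6 of 14 genes were higher and 2 lower than in SPG, and 6 of 15 were higher and 5 lower than in late-SPC. TOP2A, a topoisomerase, was at 1370 CPM in early-SPC, 464 in SPG and 231 in late-SPC. TTK, a checkpoint kinase, was at 390, 46.9 and 48.3 CPM. AURKA and CDC20, which act at the divisions, were lower than in late-SPC. AURKA had 3 UMIs in early-SPC, 45 in SPG and 115 in late-SPC. CDC20 was at 35.1 CPM in early-SPC, 48.5 in SPG and 250 in late-SPC (207 to 299). CENPF, a kinetochore protein of dividing cells, was at 450 CPM in early-SPC and 1059 in SPG. The mitosis list thus held genes on either side of both neighbours.

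DNA damage signalling includes the kinases that mark unsynapsed chromatin. ATM was at 330 CPM (267 to 404) in early-SPC, 58.2 in SPG and 37.8 in late-SPC. ATR was at 309, 40.4 and 67.2 CPM. H2AX, the histone that both phosphorylate, had 22 UMIs in early-SPC, 1 in SPG and 0 in late-SPC. These are under the minimum for a comparison, and its level in early-SPC was 77.3 CPM (48.4 to 117). Of that list, 4 of 9 genes were at least 2-fold higher and 1 lower than in SPG, and 3 of 7 were higher and 2 lower than in late-SPC. Genes of nuclear RNA export and surveillance summed to 12010 CPM in early-SPC, 6818 in SPG and 6866 in late-SPC, and TPR, a nuclear pore basket protein, gave the most UMIs of them, at 2799 CPM in early-SPC, 937 in SPG and 258 in late-SPC. Ribosome biogenesis genes summed to 6728, 5173 and 3830 CPM, with 9 of 36 higher and 8 lower than in SPG. The 28 genes with a ribosomal protein symbol summed to 20950 CPM in early-SPC, 58149 in SPG and 35010 in late-SPC, and 24 of 27 compared were at least 2-fold lower than in SPG.

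Chaperones of the endoplasmic reticulum, a list chosen after their values were seen, summed to 13200 CPM in early-SPC, 3242 in SPG and 5490 in late-SPC. Of 10 genes compared with SPG, 7 were at least 2-fold higher and none lower, and of 9 compared with late-SPC, 5 were higher and none lower. HSP90B1 was at 3922 CPM (3696 to 4159) in early-SPC, 575 in SPG and 1419 in late-SPC. CALR, the lectin chaperone calreticulin, was at 2739, 386 and 615 CPM. HSPA5, the main luminal chaperone, was at 2332, 682 and 1449 CPM, so that its ratio to late-SPC, 0.69 on the log2 scale (0.53 to 0.84), stayed under 2-fold. Glycolytic genes were low: the list summed to 246 CPM in early-SPC, 743 in SPG and 1426 in late-SPC, with 3 of 4 genes lower than in SPG and 4 of 6 lower than in late-SPC. ENO1, an enolase, was at 31.6 CPM in early-SPC, 196 in SPG and 218 in late-SPC.

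Some of the 10 highest ratios per comparison belonged to genes outside the meiotic lists. CPT1B, a carnitine transferase of fatty acid oxidation, was at 1893 CPM (1736 to 2060) in early-SPC, 45.3 in SPG and 420 in late-SPC. SNPH, known as an anchor of axonal mitochondria, was at 622 CPM (533 to 720), 12.9 and 10.5 CPM. SLC24A1, a sodium, calcium and potassium exchanger, had 57 UMIs in early-SPC, 2 in SPG and 1 in late-SPC. C5orf58 was at 211 CPM, 3.23 and 29.4 CPM. WNK3, a kinase, was at 446 CPM in early-SPC, 22.6 in SPG and had 1 UMI in late-SPC. KMT5C, a histone methyltransferase, had 53 UMIs in early-SPC and 0 in late-SPC, at least 29.5-fold higher than 3 UMIs would give there. The gene with the identifier ENSBGRG00000026304, which has no symbol in the files, had the highest ratio to late-SPC, with 569 CPM in early-SPC, 246 in SPG and 0 UMIs in late-SPC. A ribosomal RNA feature named 5S_rRNA was also among them, at 674 CPM in early-SPC, 67.9 in SPG and with 1 UMI in late-SPC, and since such features have near-identical copies its count is uncertain.

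Among the 10 lowest ratios to SPG were MTCH1 and TOMM34, mitochondrial membrane or import factors. MTCH1 had 1 UMI in early-SPC and was at 239 CPM in SPG. TOMM34 had 2 UMIs and was at 401 CPM in SPG. FKBP4, a cochaperone, was at 35.1 CPM in early-SPC, 832 in SPG and 815 in late-SPC. PFN1, an actin-binding protein, was at 14.1 CPM against 217 in SPG. Among the lowest ratios to late-SPC, PDCL2, ANKAR, AK9, VSX1, RNF32, DYDC1, NXT1 and DPY19L2 had 0 UMIs in early-SPC. PDCL2 was at 609 CPM in late-SPC, so that early-SPC was at least 57.8-fold lower, and DPY19L2, a gene of sperm head shaping, was at 218 CPM, at least 20.7-fold lower.

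X-linked genes were in sum slightly above SPG, with a log2 ratio of 0.23 (0.16 to 0.31), and well above late-SPC. The list was written from symbols known to be X-linked in mammals. Of its 68 annotated genes, 62 have the same symbol in the RefSeq table of the yak assembly Bosgru_T2T1.0, and all 62 are placed on the X chromosome there. The 68 genes summed to 8263 CPM (7932 to 8604) in early-SPC, 7033 (6826 to 7245) in SPG and 1791 (1673 to 1915) in late-SPC. Of 15 genes compared with late-SPC, 11 were at least 2-fold higher and 3 lower, with a median of 2.80. Against SPG the median was -0.70, with 8 of 28 genes higher and 12 lower, so that the sum and the median differed in sign. In cells with at least 3000 UMIs that median turned to 0.83, with 5 of 13 genes higher and 2 lower. Over all 1309 genes compared in those cells the median was 0.68, with 541 (41.3%) higher and 222 (17%) lower. The counts of the list were near these shares, and nothing is read from them. The sum was carried by genes such as PRDX4, a peroxiredoxin of the endoplasmic reticulum, at 1327 CPM in early-SPC, 280 in SPG and 92.4 in late-SPC. TSPYL2, a nucleosome assembly protein, was at 822 CPM in early-SPC, 108 in SPG and 18.9 in late-SPC. RPS4X, a ribosomal protein, was the opposite case, at 165 CPM in early-SPC, 1162 in SPG and 479 in late-SPC. FLNA and TIMP1, genes also high in stromal cells, were low as well. FLNA was at 28.1 CPM in early-SPC, 230 in SPG and 90.3 in late-SPC. TIMP1 was at 52.7, 729 and 98.7 CPM. Of the 30 list genes with at least 50 UMIs over the 3 types, 23 had a lower CPM in late-SPC than in early-SPC. All 30 had a lower one in late-SPC than in SPG, and 19 had a lower one in early-SPC than in SPG. The shares of all genes in these directions are not given, so nothing is read from these counts.

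Markers of somatic cells moved with the types and with depth. The 11 annotated muscle and stroma genes summed to 590 CPM in early-SPC, 4696 in SPG and 1663 in late-SPC. MYH11, the smooth muscle myosin, gave the most UMIs of them in early-SPC, at 207 CPM against 1265 and 426, and MYL9 was at 0. T and NK genes summed to 204, 803 and 378 CPM in the same order, with CCL5 the most abundant in early-SPC and GZMA at 0, and endothelial genes to 87.8, 495 and 357 CPM, with TEK the most abundant and BMX, PLVAP and TIE1 at 0. Macrophage and Sertoli genes summed to 7.02 CPM each in early-SPC, with 6 of 8 and 7 of 9 genes at 0. Leydig genes summed to 59.7 CPM in early-SPC, 158 in SPG and 18.9 in late-SPC, a log2 ratio of 1.66 (0.41 to 3.01) to late-SPC. DLK1 was the most abundant of them, at 52.7, 139 and 14.7 CPM, and NR5A1 was at 0. Both annotated blood genes were at 0 in early-SPC. All 8 muscle and stroma genes compared were at least 2-fold lower in early-SPC than in SPG. The part of this somatic RNA in the other differences was not tested, and the lists are set out by depth below.

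In cells with at least 5000 UMIs the muscle and stroma genes were lower than in shallow cells of all 3 types. The deep cells were 25 early-SPC, 18 late-SPC and 6 SPG cells, and the cut was chosen after the depths were seen. Muscle and stroma genes summed to 275 CPM (210 to 354) in early-SPC, 189 (122 to 278) in late-SPC and 725 (493 to 1030) in SPG, against 2547, 3049 and 5077 CPM in cells with fewer than 1000 UMIs. WFDC2, on the Sertoli list, was at 1942 CPM (1547 to 2407) in the 6 deep SPG and had no UMI in the deep cells of the other types, where 3 UMIs would give 13.7 CPM in early-SPC and 22.6 in late-SPC. The whole Sertoli list was at 4.58 CPM (0.116 to 25.5) in deep early-SPC and 181 (116 to 269) in deep late-SPC, and the macrophage list at 9.16 (1.11 to 33.1) and 151 (92.1 to 233). Both lists were at 66.3 CPM (21.5 to 154.7) in late-SPC cells with fewer than 1000 UMIs, overlapping the deep cells. T and NK genes summed to 55.0 CPM (28.4 to 96.0) in deep early-SPC, 52.8 (21.2 to 109) in late-SPC and 93.6 (25.5 to 239.6) in SPG. The synaptonemal complex list was at 5548 CPM (5240 to 5869) in the deep early-SPC, 1282 in late-SPC and 398 in SPG. SYCP3 was at 1823 CPM in the deep early-SPC cells, 23.4 in SPG and 0 UMIs in late-SPC, where 3 UMIs would give 22.6 CPM. The pachytene onset list was at 751, 11078 and 304 CPM in deep early-SPC, late-SPC and SPG. For the synaptonemal complex and pachytene onset lists the order of early-SPC and late-SPC was the same in the deep cells as in the whole types, and for muscle and stroma genes the intervals of the pair overlapped.

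**Figure D3:**
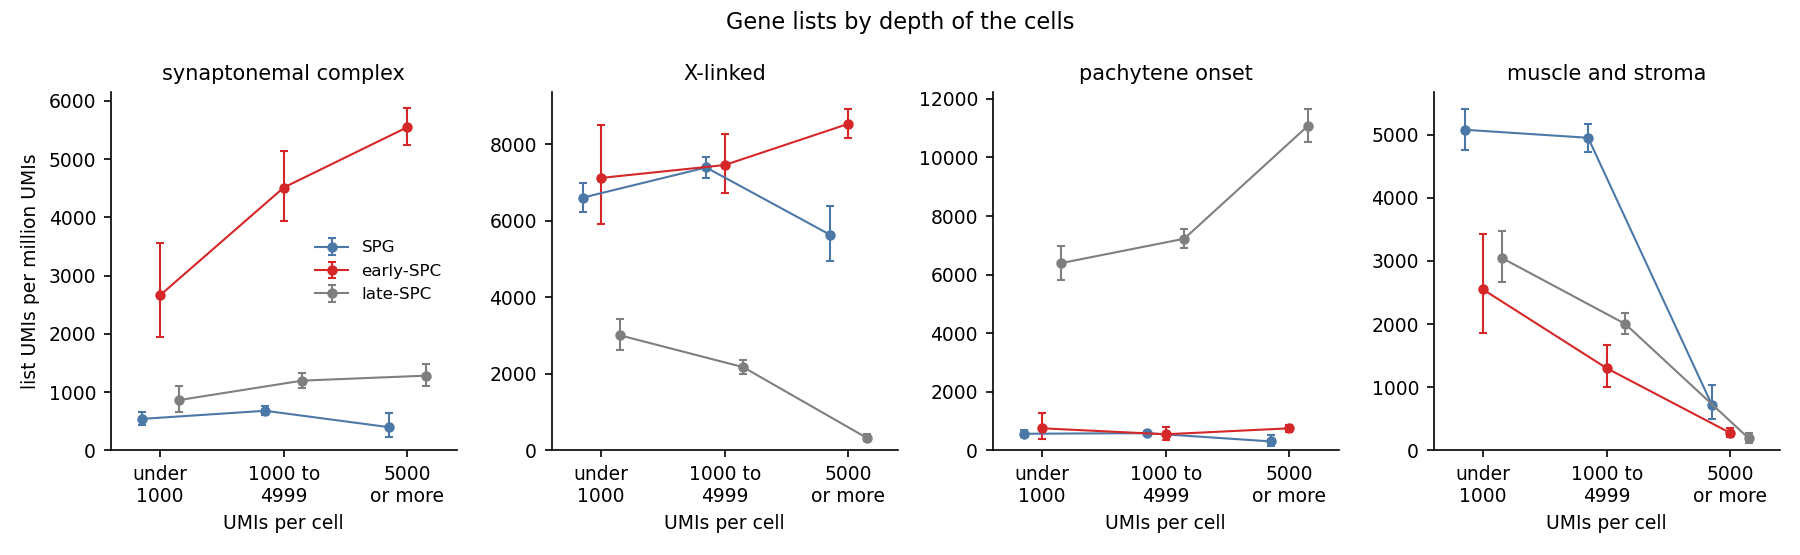
Summed CPM of 4 gene lists in SPG (blue), early-SPC (red) and late-SPC (grey), by the number of UMIs per cell. Bars are exact Poisson 95% intervals. X-linked genes were at 3009 CPM in the shallow and 324 in the deep late-SPC cells, while early-SPC stayed between 7120 and 8535 CPM, and the muscle and stroma list was lowest in the deep cells of every type.

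For X-linked genes the gap to late-SPC was wider among the deep cells. The list was at 8535 CPM (8152 to 8931) in early-SPC, 324 (235 to 437) in late-SPC and 5639 (4949 to 6397) in SPG. Of the 30 genes above, all had UMIs in the deep early-SPC and 14 had none in the deep late-SPC. The deep early-SPC held 218282 UMIs and the deep late-SPC 132604. Of the 14, DIAPH2 and SLC25A5 had only 2 and 1 UMIs in the deep early-SPC. The share of all genes without UMIs in the deep late-SPC is not given, so nothing is read from this count. TKTL1 was at 1242 CPM in the deep early-SPC and had 0 UMIs in the deep late-SPC, at least 54.9-fold higher. TEX11 had 249 UMIs against 1, and PRDX4 had 319 against 3. In late-SPC with fewer than 1000 UMIs the X-linked list was at 3009 CPM, beside the muscle and stroma level of 3049 CPM given above. The X-linked level of early-SPC changed less with depth, from 7120 CPM (5918 to 8495) in the shallow to 8535 in the deep cells.

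Cell by cell, the 61 prophase genes of the synaptonemal complex, axis, break, strand exchange and crossover lists gave a median of 18.6 UMIs per 1000 in early-SPC, with a lowest of 3.83 and a highest of 39.3. In SPG the median was 3.68 and the highest 16.2, and in late-SPC 3.20 and 22.4. The ranges overlapped. Among the 25 deep early-SPC cells SYCP3 had 9 UMIs in the lowest, a median of 16 and 30 in the highest, and RAD51AP2 had 1, 6 and 15. MEIOB had 0, 5 and 13, with UMIs in 24 of the 25. Among the 23 cells with fewer than 1000 UMIs, SYCP3 was seen in 13, RAD51AP2 in 10 and MEIOB in 7. The shallow cells as a sum still had a SYCP3 level of 1331 CPM (844 to 1998), against 32.0 (11.8 to 69.7) in SPG and 13.3 (0.336 to 73.9) in late-SPC cells of the same depth. Their synaptonemal complex level, 2663 CPM (1949.5 to 3552), was below that of the deep cells, and their RAD51AP2 level, 637 CPM (318 to 1139), had an interval that held the deep value of 820. UCHL1 was at 347 CPM (127.5 to 756) in the shallow and 119 (77.8 to 175) in the deep early-SPC cells.

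**Figure D4:**
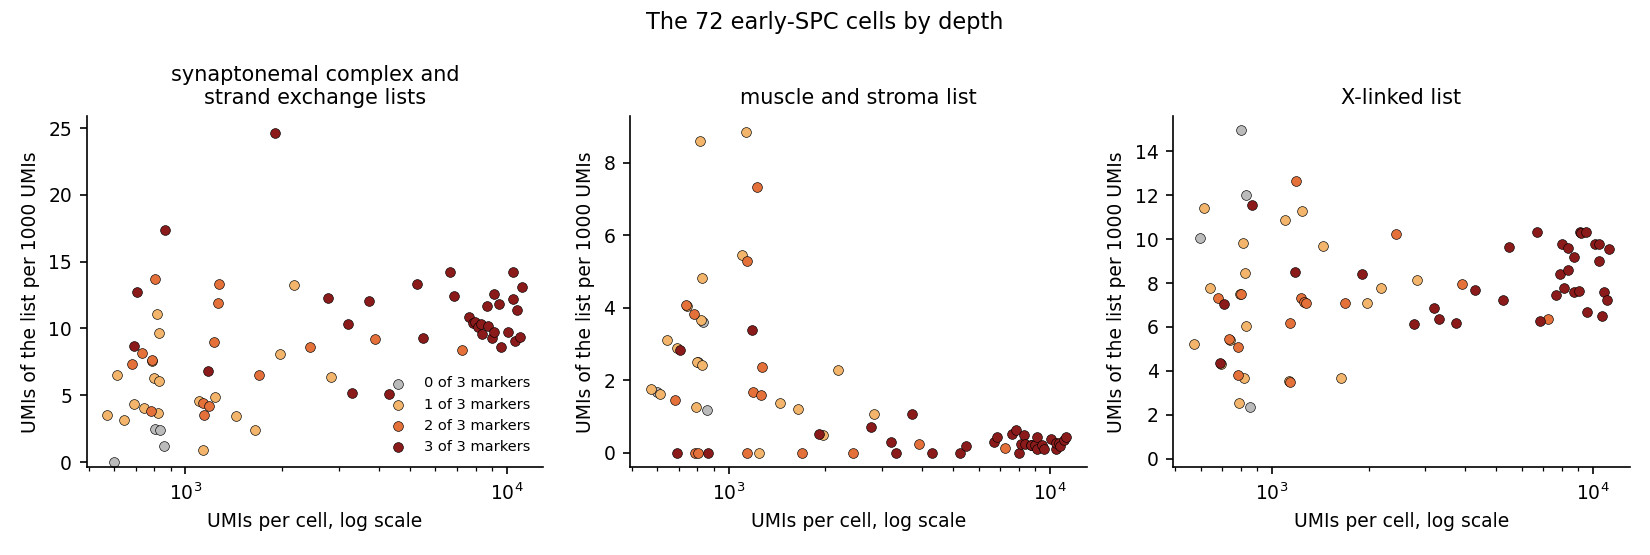
The 72 early-SPC cells by UMIs per cell (log axis) and the UMIs per 1000 of the synaptonemal complex and strand exchange lists (left), the muscle and stroma list (middle) and the X-linked list (right). Colours give how many of SYCP3, RAD51AP2 and MEIOB had a UMI, and the 25 cells with at least 5000 UMIs have at most 0.636 muscle and stroma UMIs per 1000.

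Among the 25 deep cells, the synaptonemal complex list ranged from 3.67 to 9.59 UMIs per 1000, strand exchange from 3.45 to 7.23, X-linked genes from 6.29 to 10.3 and pachytene onset from 0.181 to 1.95. Among the 23 shallow cells, in which 1 UMI is worth more than 1 per 1000, the same lists ranged from 0 to 7.48, 0 to 10.4, 2.34 to 15.0 and 0 to 2.72.

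The authors' own list of early spermatocyte genes was used to name the type from these counts, so its direction is not independent evidence. It summed to 9309 CPM in early-SPC, 1463 in SPG and 2366 in late-SPC, and 13 of the 14 genes compared with SPG were at least 2-fold higher. Against late-SPC 9 of 14 were higher and 2, AURKA and FKBP6, were lower. Their late spermatocyte list summed to 197 CPM in early-SPC and 2977 in late-SPC, with all 8 compared genes lower in early-SPC.

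The 72 cells held 30.4% of the SYCP3 UMIs of the whole yak library, 43.5% of those of RAD51AP2 and 11.9% of those of MEIOB. Outside the cell table, 83 yak cells had UMIs of at least 2 of the 3 genes and 33 had all 3. Of these 33, 23 were within limits built like those of the authors on genes, UMIs and mitochondrial share. Their median was 12726 UMIs, and 27 of the 33 held more UMIs than the deepest early-SPC cell. Having all 3 genes went with depth among the 72 cells too, where the 34 with all 3 had a median of 8058 UMIs against 1800 for the type.

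**Figure D5:**
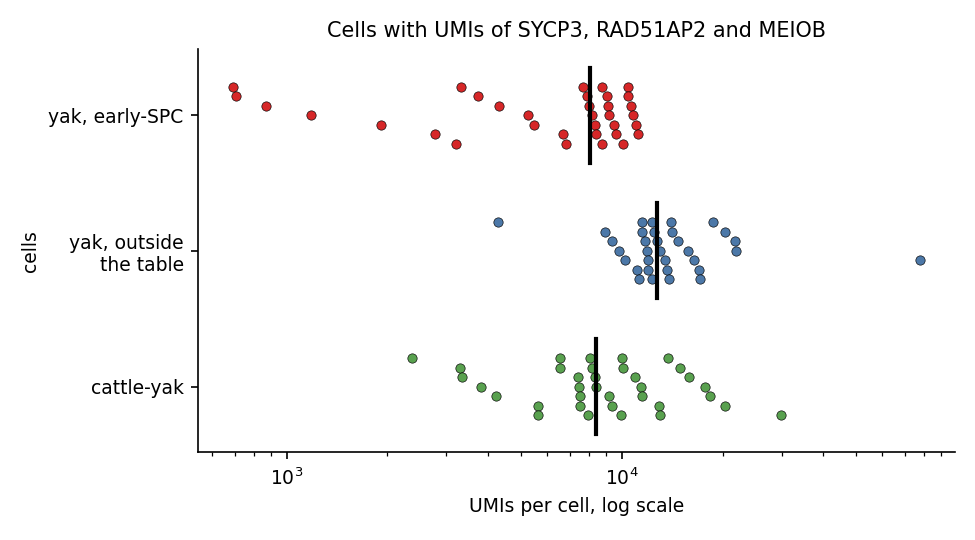
UMIs per cell (log axis) of cells with UMIs of SYCP3, RAD51AP2 and MEIOB among the 72 early-SPC (34 cells), in the yak library outside the table (33) and in the cattle-yak library (35). Black bars are medians, at 8058, 12726 and 8356 UMIs.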

How the data were processed

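The authors mapped the reads to the yak genome BosGru3.0 with Cell Ranger and deposited UMI counts per gene and barcode. The version is 5.0.0 in the file header and 2.1.1 in the submitters' processing notes, and the study's methods name another. Cell types came from the authors' cell table. Members and lists were chosen with earlier results of these data known. Counts were summed per type and divided by the type's total (CPM). Genes with 50 UMIs over a pair were compared by log2 ratio after adding 1 CPM, and a call was 2-fold. Poisson, binomial and conditional binomial intervals were exact at 95%. Cells were thinned to 1000 UMIs with a fixed seed. T/NK cells had at least 2 UMIs of CD3D, CD3E, CD3G and NKG7. A planned condition that they have no germ cell UMI was dropped, since it would set the background to 0. Genes named outside the lists were the 10 highest and 10 lowest ratios per comparison with 50 UMIs and a UMI in 20% of cells where higher. No doublet caller was run here; per the study's methods the software step removed multiplets. The steps were tested on simulated data. Python 3.11.15, numpy 2.4.6, scipy 1.17.1 and pandas 2.3.3 were used.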

Additional observations from a re-analysis of the deposited data

Results flagged for a closer look

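In the yak library, 33 cells outside the authors' table had UMIs of SYCP3, RAD51AP2 and MEIOB, data that no comparison of the types used. They held 509509 UMIs, and their synaptonemal complex list was at 3759 CPM (3592 to 3931), their pachytene onset list at 1880 CPM (1763 to 2003) and their X-linked list at 7603 CPM. Their muscle and stroma list was at 1433 CPM (1331 to 1541), against 275 CPM in early-SPC cells with at least 5000 UMIs, and no doublet caller was run. In the cattle-yak library, which has no cell table, 68 of 8930 cells had UMIs of at least 2 of the 3 genes and 35 had all 3, with a median of 8356 UMIs. SYCP3 was at 16.5 CPM (15.3 to 17.8) over that whole library, against 27.5 (26.2 to 28.9) over the yak library.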

How the results depend on the processing

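The counts of genes at least 2-fold higher and lower in early-SPC moved by over 1.5 times with the minimum on summed UMIs. The number of genes compared changed with the minimum as well. Against SPG they were 1353 (24.8%) and 1956 (35.9%) of 5454 genes at a minimum of 20, and 228 (32.9%) and 185 (26.7%) of 693 at 200. At 1 UMI they were 2728 (18.9%) and 7425 (51.5%) of 14429. Against late-SPC they were 1408 (28.3%) and 1955 (39.4%) of 4968 at 20, and 191 (27.5%) and 256 (36.9%) of 694 at 200. At 1 UMI they were 3427 (25.5%) and 6354 (47.4%) of 13417. Cells with at least 3000 UMIs were an alternative added after seeing the data. Of 1309 genes compared with SPG there, 541 were higher and 222 lower, and the median of all genes shifted to 0.68. Of 1832 compared with late-SPC, 648 were lower and 633 higher, with a median of -0.06, and the count of higher genes stayed within 1.5 times. Without the deepest 10% of cells of each type 664 of 1947 genes (34.1%) were lower than in late-SPC, against 1054 of 2799 (37.7%) with all cells. In all, 28 of 44 alternatives stayed within 1.5 times. Early-SPC cells with at least 2 of the 3 markers fell from 49 to 30 when thinned to 1000 UMIs, with 49 cells left, and unlisted yak cells from 83 to 12. With at least 1 marker the unlisted cells were 494, and with all 3 they were 33. The ratios of 6 lists to each neighbour (12 ratios) gave 60 values under 5 alternatives each, of which 2 changed sign: the spermatogonial list against SPG, from -0.20 to 0.15 without the deepest cells, and the muscle and stroma list against late-SPC, from -1.49 to 0.27 in cells with at least 3000 UMIs. The spermatogonial ratio was -0.98 in cells with at least 3000 UMIs. Of the others, 24 moved beyond their counting interval and 34 stayed within it. The muscle and stroma ratio to SPG moved from -2.99 to -1.81 with cells weighted equally and to -1.53 in cells with at least 3000 UMIs. The pachytene onset ratio to SPG moved from 0.35 to 0.73 in the latter cells. The X-linked ratio to late-SPC ranged from 1.57 with cells weighted equally to 4.04 in cells with at least 3000 UMIs. The causes were not tested. No paired analysis was possible because the library is single and no test was made.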
